A study of Mus musculus with 37 samples.

Results

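Mast cells treated with IL-10 alone were compared with untreated mast cells, across every gene of the deposited expression table that had a value of at least 10 in either group. Of 6509 genes in the table, 5662 were kept, and of these 121 (2.14%) were at least 2-fold higher and 151 (2.67%) at least 2-fold lower with IL-10. The raised genes included Il10 itself, the protease gene Prss23, the secreted matrix protein genes Wisp2 and Timp1, the surface antigen gene Ly6a and the kinase genes Pim2 and Jak3. Among the genes that were lower were the chemokine genes Cxcl12 and Cx3cl1, the cytokine gene Lif, the cytokine receptor gene Il9r, the receptor gene Mrgprb2 and the vesicular amine transporter gene Slc18a2. The genes for the IL-10 receptor chains and the 38 kept genes of a list of interferon-induced genes did not differ by 2-fold. Of all kept genes, 4.80% did.

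The series held 37 RNA sequencing samples of mouse cells, and 4 of these belong to this comparison. All but 1 were myeloid cells, grouped by cell type and by treatment with IL-10, LPS, both or neither, and the remaining sample, of activated T cells, was not used here. The mast cells were from C57Bl6cJ mice. Untreated mast cells (Mast cell -IL10 -LPS, treatment None) were set against mast cells given 100 ng/ml IL-10 for 4 h (Mast cell +IL10 -LPS). The labels give no transgene, deletion or further agent for either group. The cells were grown from bone marrow, so both groups are cultured cells and not mast cells taken from a tissue, and the 2 replicates of a group came from separate pools of mice. In the groups with LPS, 100 ng/ml LPS was present for 4 h, in the group with both agents after 4 h of IL-10. Those cells may therefore have been in culture longer than the cells of the groups without LPS. The study listed different library kits for replicate 1 and replicate 2 of the mast cells.

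IL-10 is a cytokine that dampens inflammation. It binds a receptor made of IL-10RA and IL-10RB, whose associated kinases JAK1 and TYK2 phosphorylate the transcription factor STAT3, and STAT3 then switches on target genes, some of which hold back the response to bacterial products. Mast cells are long-lived tissue cells that store histamine, serotonin and proteases in granules, and they release these and lipid mediators when IgE bound to the FceRI receptor meets antigen. They depend on the receptor tyrosine kinase KIT and can make IL-10 themselves.

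Each deposited value is the authors' mean over the 2 replicates of a group, in normalized sequence tags assigned to a transcript, and the values of a gene's transcripts were added together here. The values of single replicates were not used here, so no SD, no test between the groups and no p-value can be given, and every difference below has no replicate check. A gene is called raised or lowered when log2((IL-10 + 1)/(untreated + 1)) is at least 1 or at most -1, and log2 changes below are on that scale, which understates the change of genes with low values. The median log2 change of all kept genes was -0.02 and the median size of a change was 0.18. Of the kept genes, 87.5% lay within 1.5-fold, 46.2% had a log2 change above 0 and 53.4% one below 0. Just inside the threshold were Camk4 (16.5 untreated, 34 with IL-10) and 2210011C24Rik (11 and 5), and just outside it were Lpar1 (198 and 395) and Rgs2 (2359.5 and 1183.5). Among the called genes, 29 raised and 44 lowered had both values under 50. In these bulk samples, a lower value from fewer cells of a type cannot be told apart from less RNA per cell.

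**Figure D1:**
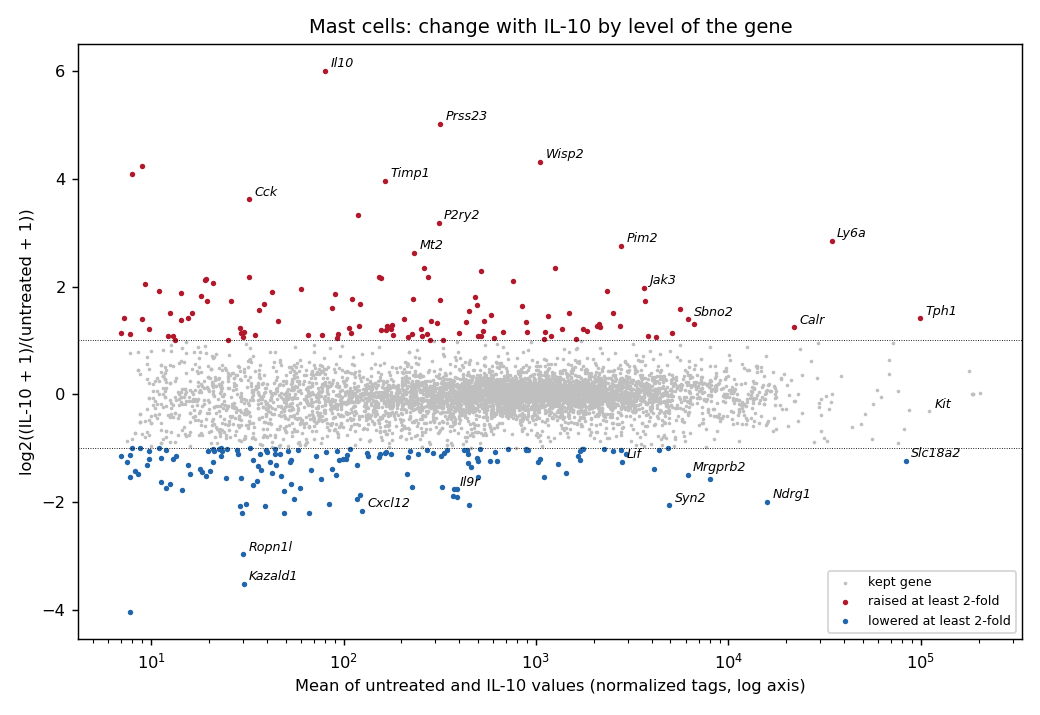
Each point is 1 kept gene in mast cells, with the mean of its untreated and IL-10 values on the x axis (normalized tags, log axis) and its log2 change with IL-10 on the y axis. Of 5662 genes, 121 lie on or above the upper dotted line at 2-fold and 151 on or below the lower one, and most genes at any level lie near 0.

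The labelled cell type was checked first against genes that mark mast cells. Kit, the stem cell factor receptor, had 122732 normalized tags untreated and 98782.5 with IL-10, a log2 difference of -0.31. Il1rl1, the receptor for IL-33, had 199947 and 203852, and the tryptase gene Tpsb2 had 187854 and 187750. A transcript of each of these 2 genes stood at 185338, the highest value of every column, so a change above that level could not have been seen. Gata1, a transcription factor of the mast cell and erythroid lineages, had 2757 and 2794. Enpp3, a surface marker shared with basophils, was listed at 0 in every mast cell group. Of 38 listed mast cell identity and granule genes, 16 were in the table, and Fcer1a, Cpa3, Cma1 and Hdc were not analysed here. Of those in the table, Kit, Il1rl1 and Tpsb2 had high values in both groups.

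Genes that mark other cell types were low or similar between the groups. Of 18 macrophage markers, 8 were in the table, with a summed value of 3664.5 normalized tags untreated and 3373 with IL-10. Timd4 and Marco were at 0 in both groups, and Emr1 had 667 untreated and 522 with IL-10. Of 19 neutrophil and precursor markers, 9 were in the table, with sums of 1654 and 1753.5. Ly6g was at 0 in both groups, Retnlg had 1.5 and 1, and Mpo had 582.5 and 573. Of 14 basophil and eosinophil markers, 4 were in the table, with sums of 19981 and 15359. Prss34 and Cd200r3, which were listed here as basophil markers, had 2221 and 16772 untreated and 2151 and 12668 with IL-10, so they were not low. Whether they came from other cells or from the mast cells was not tested. The sums were 455.5 and 421.5 for 4 dendritic cell markers and 224.5 and 178.5 for 10 lymphoid and erythroid markers. Of these 5 marker lists, only the list for basophils and eosinophils held called genes. Epx was raised and Ccr3 lowered among its 4 kept members, against 2.14% and 2.67% of all kept genes. Epx, the eosinophil peroxidase gene, had 25 normalized tags untreated and 66 with IL-10, and whether other cells had a part in that difference was not tested.

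The receptor chains that bind IL-10 did not reach 2-fold. Il10ra had 10905.5 normalized tags untreated and 10113.5 with IL-10, and Il10rb had 964.5 and 877.5. Tyk2, the kinase gene of the second chain, had 2561 and 1738, a log2 difference of -0.56. Jak3, whose product serves the common gamma chain of other cytokine receptors, was raised from 1477.5 to 5817, a log2 change of 1.98. Of 20 listed IL-10 receptor and JAK-STAT genes 10 were in the table and kept. Jak3 was the 1 raised among them, against 2.14% of all kept genes, no member was lowered and the median log2 change was -0.06. All 6 Jak3 transcripts in the table were higher with IL-10, the leading one at 620 untreated and 2171.5 with IL-10. Insl3, which lies within the span of Jak3 (chr8:74200195-74214474, mm9) on the same strand, had 38.5 and 143, and tags from these 2 genes may not be separable. Il2rg, the common gamma chain itself, had 7752.5 and 7244. The transcription factor gene Stat6 had 4596.5 and 4153. The phosphatase genes Ptpn1, Ptpn6 and Ptpn11 lay between log2 changes of -0.02 and 0.02. Stat3, Jak1 and Socs3 were not analysed here.

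Of 18 listed kinases and feedback regulators of cytokine signalling, 9 were in the table, and Pim2 was the 1 raised among them. Socs1, Socs3 and Dusp1 were not analysed here. Pim2 encodes a serine/threonine kinase that promotes survival, and it had 715.5 normalized tags untreated and 4836.5 with IL-10, a log2 change of 2.76. Its relatives differed less, with Pim1 at 11508.5 and 16663 (log2 change 0.53) and Pim3 at 942.5 and 984 (0.06). Cish, a feedback inhibitor of STAT5 signalling, had 15211.5 and 13656.5. Socs2 had 561.5 and 308.5, a log2 difference of -0.86. The other members, Socs7, Spred2, Dusp5 and Dusp6, lay between -0.57 and 0.06. The list had 9 kept members with 1 raised, against 2.14% of all kept genes, none lowered and a median log2 change of -0.15.

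Of 12 listed genes known as IL-10 or STAT3 targets in macrophages, 4 were in the table and 2 were raised, against 2.14% of all kept genes. Sbno2, a corepressor of inflammatory genes, had 3403 normalized tags untreated and 8959 with IL-10, a log2 change of 1.40. Hmox1, the heme-degrading enzyme heme oxygenase 1, had 1218 and 2923.5, a log2 change of 1.26. Ptpn1 and the lipid phosphatase gene Inpp5d (32372.5 and 31592.5) did not differ by 2-fold. Both transcripts of Sbno2 were higher, at 3092.5 untreated and 7669 with IL-10 for one and at 310.5 and 1290 for the other.

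Promoter sequence was searched because STAT factors bind palindromic TTCNNNGAA elements, the letters of which read the same on both strands. In the RefSeq promoters of GRCm38.p6, each 250 bases before to 50 after a gene's start, TTCNNNGAA was present in 9 of 94 raised genes with a promoter (9.57%), 8 of 102 lowered genes (7.84%), 385 of 4178 kept genes (9.21%) and 8.30% of all 32851 promoters. The stricter form TTCCNGGAA, every copy of which also counts for the first, was present in 2 raised genes (2.13%), in 0 lowered genes, in 70 kept genes (1.68%) and in 1.15% of all promoters. The share in raised genes was therefore near that of all kept genes. A match here is a run of letters and not a measured binding site. A stretch of 100 promoter bases around the motif, which is in capitals, is shown for Sbno2, which has 2 annotated starts, and for Pros1, which was chosen after its values were seen because it holds the stricter form. The windows are chr10:80102703-80102802 (minus strand) and chr10:80101188-80101287 (minus strand) for Sbno2 and chr16:62854170-62854269 (plus strand) for Pros1, with the motif starting 26, 24 and 92 bases before the start.
Sbno2, upstream start: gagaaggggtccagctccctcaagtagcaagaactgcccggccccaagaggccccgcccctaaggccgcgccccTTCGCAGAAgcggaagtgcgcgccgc
Sbno2, downstream start: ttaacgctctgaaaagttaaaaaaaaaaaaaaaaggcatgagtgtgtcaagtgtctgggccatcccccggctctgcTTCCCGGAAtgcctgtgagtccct
Pros1: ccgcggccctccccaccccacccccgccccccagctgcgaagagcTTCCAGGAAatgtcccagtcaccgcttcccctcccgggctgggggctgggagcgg
Pros1, which encodes the anticoagulant protein S, had 1052 normalized tags untreated and 2444 with IL-10, a log2 change of 1.22.

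The largest rise was in Il10, the gene of the added cytokine. Il10 (chr1:132916422-132921551, mm9, plus strand, 1 transcript in the table) had 1.5 normalized tags in untreated mast cells and 159.5 with IL-10, a log2 change of 6.0. It had 5 with LPS alone and 208.5 with IL-10 and LPS, so both groups given IL-10 were high and both groups without it were near 0. Il12a, a subunit of IL-12 and IL-35, had 8 untreated and 24.5 with IL-10.

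Next by size of the rise, among genes with a value of at least 50 in either group, came Prss23, Wisp2 and Timp1, all genes for secreted proteins. Prss23, a secreted serine protease (chr7:96656295-96666096, mm9, minus strand), had 18 normalized tags untreated, 618 with IL-10, 0.5 with LPS and 338 with IL-10 and LPS. Wisp2, a secreted protein of the CCN family, had 99.5, 1998, 40.5 and 1786 in the same order. Timp1, an inhibitor of matrix metalloproteinases that lies within the span of Syn1 on the opposite strand, had 19, 311, 13.5 and 344, while Syn1 had a log2 difference of -0.49 with IL-10. In all 3 genes, both groups with IL-10 were several times above both groups without it, and LPS alone was below untreated. Cck, a peptide hormone, had 4 untreated and 60.5 with IL-10. The transmembrane semaphorin Sema6b had 175 and 856, and the enzyme gene B3gnt7, which extends sugar chains, had 98.5 and 449.5.

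Among the 15 largest rises of such genes were also the cell surface genes Ly6a, P2ry2 and Cd86. Ly6a, the stem cell antigen Sca-1, had 8395 normalized tags untreated, 60369 with IL-10, 18753 with LPS and 122463 with both, a log2 change of 2.85 with IL-10 alone. The adjacent family members Ly6c1 (57.5 and 186.5) and Ly6i (104.5 and 357.5) were also raised, and were chosen after their values were seen. These 3 genes are close relatives in sequence, and tags may have been split between them. P2ry2, a receptor for extracellular nucleotides, had 61 untreated and 562.5 with IL-10, with 72 under LPS and 1304.5 under both. Its neighbour P2ry6, also chosen after its values were seen, had 49.5 and 172. The T cell costimulatory ligand Cd86 had 11 untreated and 53.5 with IL-10, and Aif1l, an actin-binding protein, had 20.5 and 216.

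The 15 largest rises also held Mt2, Ptgs2 and D17H6S56E-5. Mt2, a metallothionein, had 64 normalized tags untreated and 400.5 with IL-10, a log2 change of 2.63, and its neighbour and close copy Mt1, chosen after its values were seen, had 982.5 and 3701. Ptgs2, which encodes the prostaglandin-producing enzyme COX-2, had 85.5 untreated and 441 with IL-10, a log2 change of 2.35. With LPS alone Ptgs2 had 802.5 and with both agents 676, so it was higher with IL-10 in the groups without LPS and not in those with it. D17H6S56E-5 had 414 untreated and 2100 with IL-10 but 21602 and 22668 in the groups with LPS. It overlaps Vars on the opposite strand, and strand use in counting was not given in the sources used here, so its tags may be shared with Vars, which had a log2 change of 0.61.

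**Figure D2:**
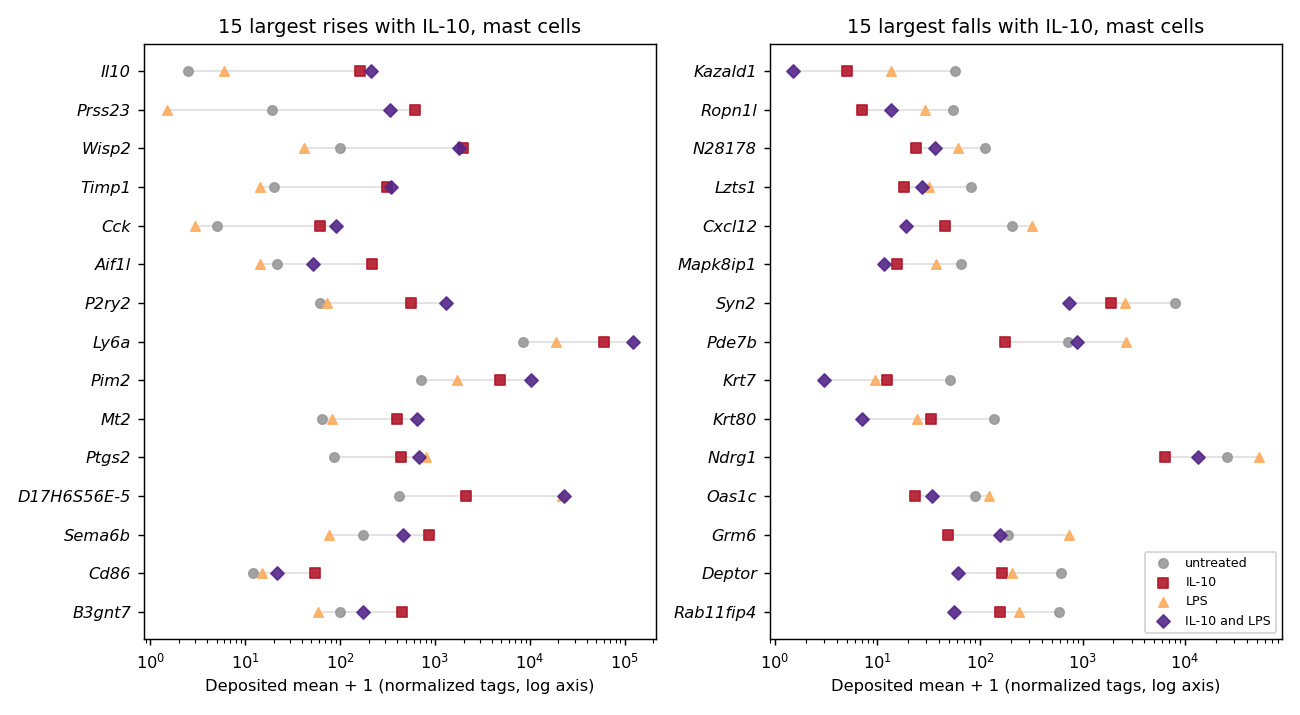
The 15 genes with the largest rise (left) and the 15 with the largest fall (right) among kept genes with a value of at least 50 in either group, each shown with its deposited mean + 1 in 4 mast cell groups on a log axis (normalized tags). Il10, Prss23, Wisp2 and Timp1 have both IL-10 groups far to the right of both groups without IL-10, whereas Ptgs2 and D17H6S56E-5 are as high with LPS alone as with both agents.

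Of the raised genes, Tph1, Ly6a, Calr, Galnt6 and Nsf had the largest differences in normalized tags. Tph1, the enzyme that begins serotonin synthesis, had 54476.5 normalized tags untreated and 144718 with IL-10, a log2 change of 1.41. Values this high recur between columns, so the size of the Tph1 change in tags is uncertain. Calr, a calcium-binding chaperone of the endoplasmic reticulum, had 13015 and 30802, a log2 change of 1.24. Galnt6, which starts O-linked sugar chains, had 3795 and 9392, and Nsf, an ATPase that recycles the vesicle fusion machinery, had 2807.5 and 8377.5. Junb, an AP-1 transcription factor, had 3166.5 and 7007, and was the 1 raised gene among 15 kept immediate early genes, against 2.14% of all kept genes. Map3k8, a kinase that links the NF-kB and MAP kinase pathways, had 55 and 252, and was the 1 called gene among 18 kept members of the NF-kB list, a share near the 4.80% of all kept genes.

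The deepest falls were mostly in genes of low to moderate value. The 15 largest falls among genes with a value of at least 50 also held the high-value genes Syn2 and Ndrg1, given below. Kazald1, a secreted protein with a growth factor-binding domain, had 56.5 normalized tags untreated, 4 with IL-10, 12.5 with LPS and 0.5 with both, a log2 change of -3.52 with IL-10 alone. Ropn1l, best known from sperm and cilia, had 54 untreated and 6 with IL-10. Lzts1 had 81.5 and 17, N28178 had 110 and 23, and Mapk8ip1, a scaffold for JNK signalling, had 64 and 14.5. The fall of N28178 came from 1 of its 2 transcripts, at 90 untreated and 0 with IL-10, while the other had 20 and 23. The keratin genes Krt7 and Krt80, which lie in the keratin cluster of chromosome 15, had 50.5 and 136.5 untreated and 11.5 and 32.5 with IL-10. Oas1c, a member of the oligoadenylate synthetase family, had 88 and 22, and the glutamate receptor gene Grm6 had 186.5 and 47.5.

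Of the lowered genes, Slc18a2, Ndrg1, Atp8b5, Syn2 and Mrgprb2 had the largest differences in normalized tags. Ndrg1, a gene induced by stress and differentiation, had 25517.5 normalized tags untreated, 6416 with IL-10, 52644 with LPS and 13197.5 with both. Its log2 change was -1.99 with IL-10 alone and -2.0 with IL-10 and LPS against LPS. Syn2, a synaptic vesicle protein, had 7956, 1904.5, 2580 and 734.5 in the same order. Pde7b, a cAMP phosphodiesterase, had 720 untreated and 172.5 with IL-10, Deptor, an inhibitor of mTOR, had 615 and 164, and Rab11fip4, an effector of vesicle trafficking, had 583.5 and 156.5. Atp8b5, a lipid flippase, had 11965.5 and 4008.5.

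Some called genes were measured only at low values. Of genes with both values under 50, the largest rises were in Zc3h12d and the complement gene C4b, which were listed at 0 untreated and had 18 and 16 with IL-10, and in Nupr1 (6.5 and 32), Derl3 (6.5 and 31.5) and Il13ra1 (7.5 and 34.5). The largest falls were in Stk36, which had 15.5 untreated and was listed at 0 with IL-10, and in the chemokine Cx3cl1 (49.5 and 10), Synpo2 (47.5 and 10.5), A430107O13Rik (23 and 6) and the TGF-beta family receptor Acvrl1 (19 and 5). For these genes a few tags separate the groups.

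Cytokine and chemokine genes moved both ways. Of 31 listed genes in the table, 20 were kept, 3 were raised (Il10, Il12a and Osm) and 3 were lowered (Lif, Cxcl12 and Cx3cl1), against 2.14% and 2.67% of all kept genes, with a median log2 change of -0.31. Osm and Lif are related cytokines of the IL-6 family and lie 16.5 kb apart on chromosome 11. Osm had 1065.5 normalized tags untreated and 2166.5 with IL-10, a log2 change of 1.02, and Lif had 3925 and 1643, a log2 change of -1.26. Cxcl12, a chemokine that attracts CXCR4-bearing cells, had 204.5 untreated, 45 with IL-10, 323 with LPS and 18 with both. The mast cell cytokine genes Il4 (224.5 and 119) and Il13 (37 and 20) were lower by less than 2-fold, with log2 differences of -0.91 and -0.86. Tnf had 551 and 575, a log2 difference of 0.06.

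Cytokine receptor genes were called in 5 of 34 kept members, against 4.80% of all kept genes. Il9r, the receptor for the mast cell growth factor IL-9, had 579.5 normalized tags untreated, 170 with IL-10, 322 with LPS and 37.5 with both, a log2 change of -1.76 with IL-10 alone. Ccr3, the eotaxin receptor, had 963 untreated and 474 with IL-10, a log2 change of -1.02. Il1r1, the receptor for IL-1, was raised from 171.5 to 374, a log2 change of 1.12. Il13ra1 was raised and Acvrl1 lowered at the low values given above. The median of the list was 0.16. Csf2rb2, a beta chain of the IL-3 receptor, had 151676 and 205518 (log2 difference 0.44), and a transcript of it stood at the column maximum with IL-10 only. Il1rap had 1049 and 528, and Il17ra 3895 and 7374, both just short of 2-fold. In Toll-like receptor and related genes, Tlr1 was raised from 41 to 89 and the bacterial peptide sensor Nod2 was lowered from 144 to 65. They were the called genes of 15 kept members, against 4.80% of all kept genes. The Nod2 transcripts went opposite ways, one from 144 untreated to 11 with IL-10 and another from 0 to 53.

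Genes for mast cell granules and amines were called in 3 of 15 kept members, 1 raised and 2 lowered, against 2.14% and 2.67% of all kept genes, with a list median of -0.31. Of the genes that handle serotonin, Tph1 was raised as given above and Slc18a2 was lowered. The serotonin transporter gene Slc6a4 (470.5 and 324.5, log2 difference -0.53) and the synthesis enzyme gene Ddc (301.5 and 227.5, -0.40) did not reach 2-fold. Slc18a2, the transporter VMAT2 that loads amines into granules, had 117062 normalized tags untreated and 49839.5 with IL-10, a log2 change of -1.23, with 54858 under LPS and 54465 under both. Its leading transcript had 115529 untreated and 48432 with IL-10. Values this high recur between columns, 52655 being that of this transcript in both LPS groups and of the leading Tph1 transcript untreated. The sizes of the Slc18a2 and Tph1 changes in tags are therefore uncertain. Mrgprb2, the receptor through which basic peptides and drugs activate mast cells, had 9060.5 untreated, 3216.5 with IL-10, 11062 with LPS and 2191 with both. Its neighbour Mrgprx2, chosen after its values were seen, had 2362 and 1160.5, and these related genes may share tags. Short of 2-fold, the tryptase gene Tpsab1 had 5179 and 2721.5 (log2 difference -0.93), Cd63, a granule membrane protein, had 16820.5 and 30212 (0.84), and the adenosine receptor gene Adora3 had 5626 and 10397.5 (0.89). Genes of the signalling chain below FceRI and KIT gave no call in 19 kept members, against 4.80% of all kept genes. Among them Vav1, a signalling adaptor of blood cells, had 4397 normalized tags untreated and 6871.5 with IL-10 (log2 difference 0.64). Of the lipid mediator genes, Ptgs2 was the 1 called gene of 10 kept members, against 4.80% of all kept genes. Alox5, the first enzyme of leukotriene synthesis, had 100482 and 64022.5, a log2 difference of -0.65.

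Other pathways had few or no called genes, beside 4.80% of all kept genes called. At that share, short lists hold few called genes. Of 38 kept interferon-induced genes none was raised or lowered with IL-10 alone, the range was -0.55 to 0.51 and the median 0.04. None was called among 20 kept cell cycle genes (median -0.06), 16 cholesterol and fatty acid genes (0.10) or 14 cytosolic ribosomal protein genes (0.16). Of 17 kept glycolysis and hypoxia genes Ndrg1 was the 1 called, and the list median was -0.22. Of 13 kept chaperone and stress response genes Asns, the enzyme that makes asparagine, was raised from 163.5 to 347, and Hsp90b1, a chaperone of the endoplasmic reticulum, had 20029 and 38536.5, a log2 difference of 0.94. Of 11 kept solute carriers, Slc18a2 was the 1 called.

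**Figure D3:**
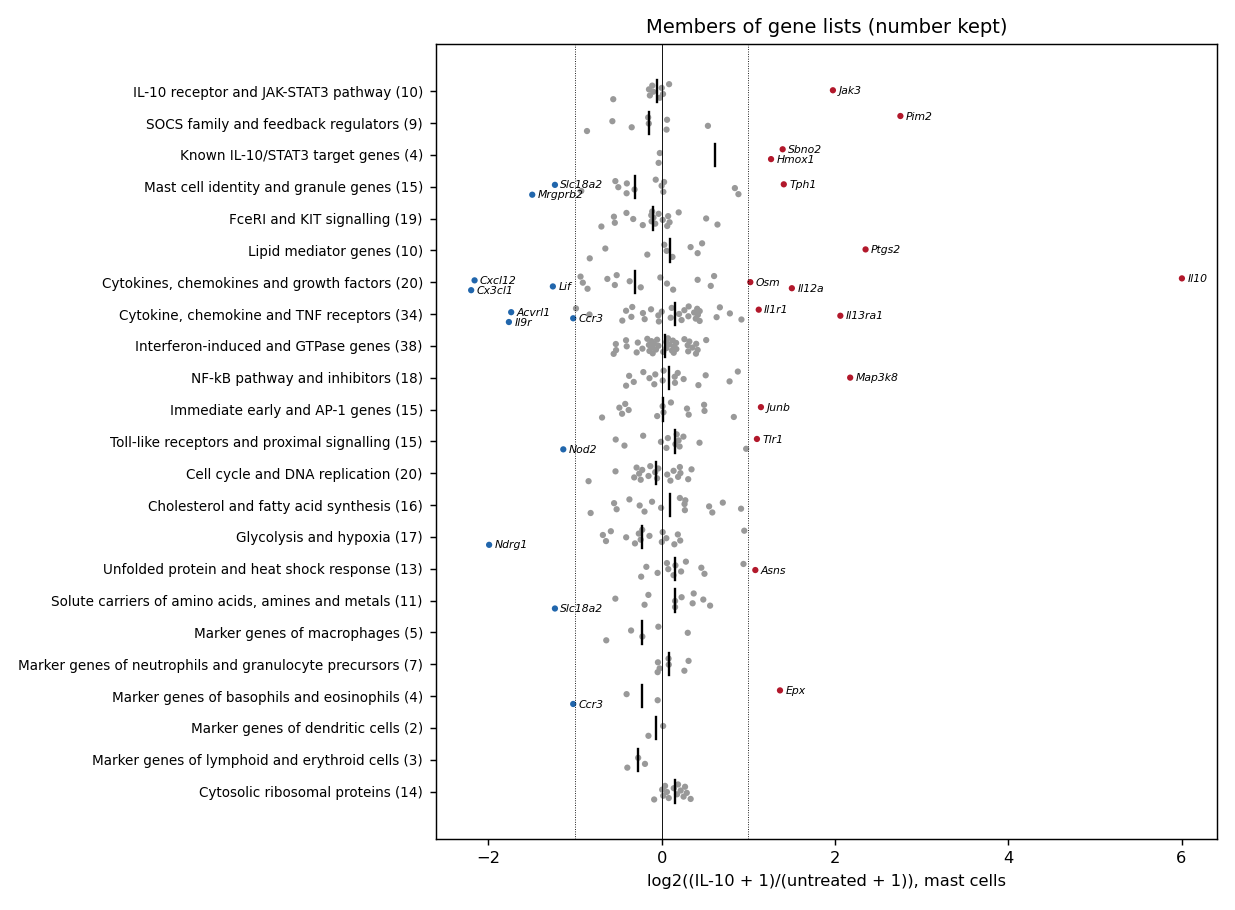
The log2 change with IL-10 in mast cells of each kept member of the gene lists, 1 row per list with the number of kept members in parentheses; the thick bar is the list's median, dotted lines mark 2-fold and red and blue points are raised and lowered genes, with names. All 38 interferon-induced genes lie between the dotted lines, beside 4.80% of all kept genes called, while Il10 lies far to the right of the other cytokine genes.

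The same cells given LPS offer a comparison of IL-10 with its absence in other libraries, IL-10 and LPS against LPS alone, although cultures may be shared between groups. Of the 121 genes raised by IL-10 alone, 118 were kept there and 69 (58.5%) were at least 2-fold higher with IL-10, against 2.78% of all genes kept in that comparison. Of the 151 lowered genes, 126 were kept and 78 (61.9%) were at least 2-fold lower, against 4.55% of all. In sign alone, 111 of the 118 (94.1%) were higher, against 46.8% of all genes, and 122 of the 126 (96.8%) were lower, against 52.9%. The median log2 change with LPS present was 1.25 for the raised and -1.19 for the lowered genes. Across the 5575 genes kept in both comparisons Pearson's r was 0.73, a description across genes that are not independent of each other.

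Genes with the same direction in both settings included most of those named above. The log2 change with IL-10 in the presence of LPS was 7.82 for Prss23, 5.43 for Wisp2, 5.13 for Il10, 2.71 for Ly6a, 2.60 for Pim2, 2.19 for Jak3 and 1.57 for Sbno2. It was -4.09 for Cxcl12, -3.07 for Il9r, -2.34 for Mrgprb2 and -1.34 for Lif. Other called genes did not differ by 2-fold where LPS was present. With LPS present the log2 change was -0.25 for Ptgs2, 0.07 for D17H6S56E-5, 0.43 for Map3k8, 0.16 for Hmox1, -0.01 for Slc18a2, -0.22 for Lzts1 and 0.08 for Tph1. The leading Tph1 transcript stood at the column maximum in both LPS groups, where a rise could not be seen. The leading Slc18a2 transcript had the same value, 52655, in both. The leading Tph1 transcript also had 52655 in untreated cells, so high values recur between columns and equal values need not mean equal tags. In 3 called genes the change was at least 2-fold the other way with LPS present. Slit2 went from 1.22 to -1.0, Zhx2 from -1.16 to 1.03, and Stk36, listed at 0 with IL-10 alone, had 3.5 with LPS and 10.5 with both.

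Interferon-induced genes were the list whose median differed most between the comparisons with and without LPS. With LPS present, 27 of 42 kept members were at least 2-fold lower with IL-10, against 4.55% of all genes, and the list median was -1.13. Usp18, a regulator of the interferon response, had 1688 normalized tags with LPS and 406.5 with both agents, beside 170 untreated and 117.5 with IL-10 alone. The RNA sensor gene Ddx58 had 6773.5 and 1820, beside 1406 and 1423.5. In both genes, the group with both agents lay between the 2 groups without LPS and LPS alone. The difference between the comparisons was not tested, since each group is a single mean.

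**Figure D4:**
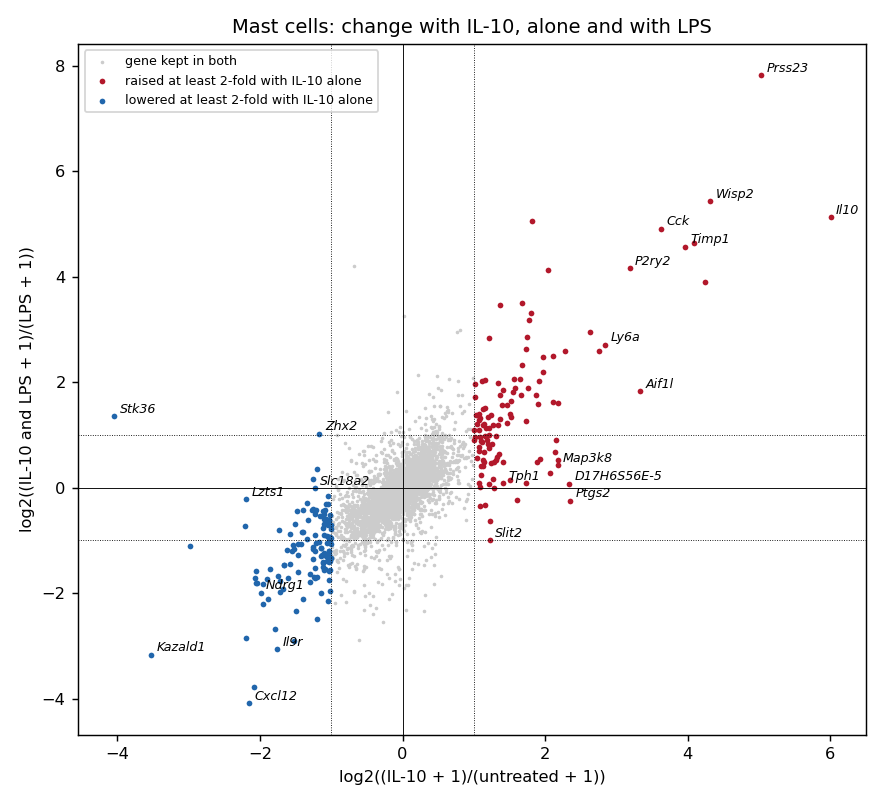
Each point is 1 gene kept in both comparisons, with its log2 change with IL-10 alone on the x axis and with IL-10 and LPS against LPS on the y axis; dotted lines mark 2-fold and colours mark genes called with IL-10 alone. Most red points lie above 0 and most blue points below 0 on the y axis, with Slit2, Stk36 and Zhx2 past the 2-fold line the other way.

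Few of the genes called in mast cells were called the same way with IL-10 in the other cell types of the series, though in each a larger share than of all genes. Macrophages kept 102 of the raised mast cell genes, and 8 of them (7.84%) were at least 2-fold higher with IL-10, against 2.02% of all genes kept in macrophages. Neutrophils kept 102, of which 12 (11.8%) were at least 2-fold higher, against 1.12% of all. The sDCs, or splenic dendritic cells, kept 101, of which 10 (9.90%) were at least 2-fold higher, against 1.46%. The lowered mast cell genes were at least 2-fold lower in macrophages for 10 of 117 (8.55%, against 1.84% of all), in neutrophils for 6 of 96 (6.25%, against 0.652%) and in sDCs for 3 of 110 (2.73%, against 0.723%). In the opposite direction, 7, 1 and 3 of these lowered genes were at least 2-fold higher, so in sDCs as many moved one way as the other. Of the raised genes, 3 in macrophages and 0 in neutrophils and in sDCs were at least 2-fold lower. By sign alone, the raised genes were above 0 in macrophages for 72.5% (40.2% of all genes), in neutrophils for 73.5% (41.5%) and in sDCs for 72.3% (52.5%). The lowered genes were below 0 for 63.2% (59.4% of all genes), 66.7% (57.7%) and 54.5% (46.8%) in the same order, closer to the shares of all genes. Of the 121 raised genes, 99 were called raised in none of the other 3 cell types, but 89 were kept in all 3 and 6 in none. Of the 151 lowered genes, 133 were called lowered in none, with 71 kept in all 3 and 9 in none. The share of all genes called in none of the 3 was not counted, so these counts do not mark a response particular to mast cells.

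Sema6b was raised in all 4 cell types, and Igfbp6, Il13ra1, Jak3, Lrg1, Timp1 and Trim30b in mast cells and in 2 of the others. Igfbp6, Lrg1 and Trim30b fall outside the rule for named genes and were chosen after their values were seen. Sema6b had 293 normalized tags untreated and 687 with IL-10 in macrophages, 288.5 and 924 in neutrophils, and 31.5 and 123.5 in sDCs. Jak3 had 272 and 1194 in neutrophils and 1229 and 2695.5 in sDCs, while in macrophages it had 727.5 and 1409.5, a log2 difference of 0.95. Timp1 had 6 and 37.5 in neutrophils and 4.5 and 14.5 in sDCs, but 1190.5 and 1391 in macrophages. Kazald1 was the gene lowered in 2 other cell types, from 35.5 to 17 in macrophages and from 10.5 to 3.5 in neutrophils. Il10 itself had 10 and 13 in macrophages, 1.5 and 0.5 in neutrophils and 26 and 20 in sDCs, so its rise in mast cells had no counterpart of 2-fold in those columns. Ly6a had log2 changes of 0.99 in macrophages, 0.71 in neutrophils and 1.34 in sDCs, beside 2.85 in mast cells.

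**Figure D5:**
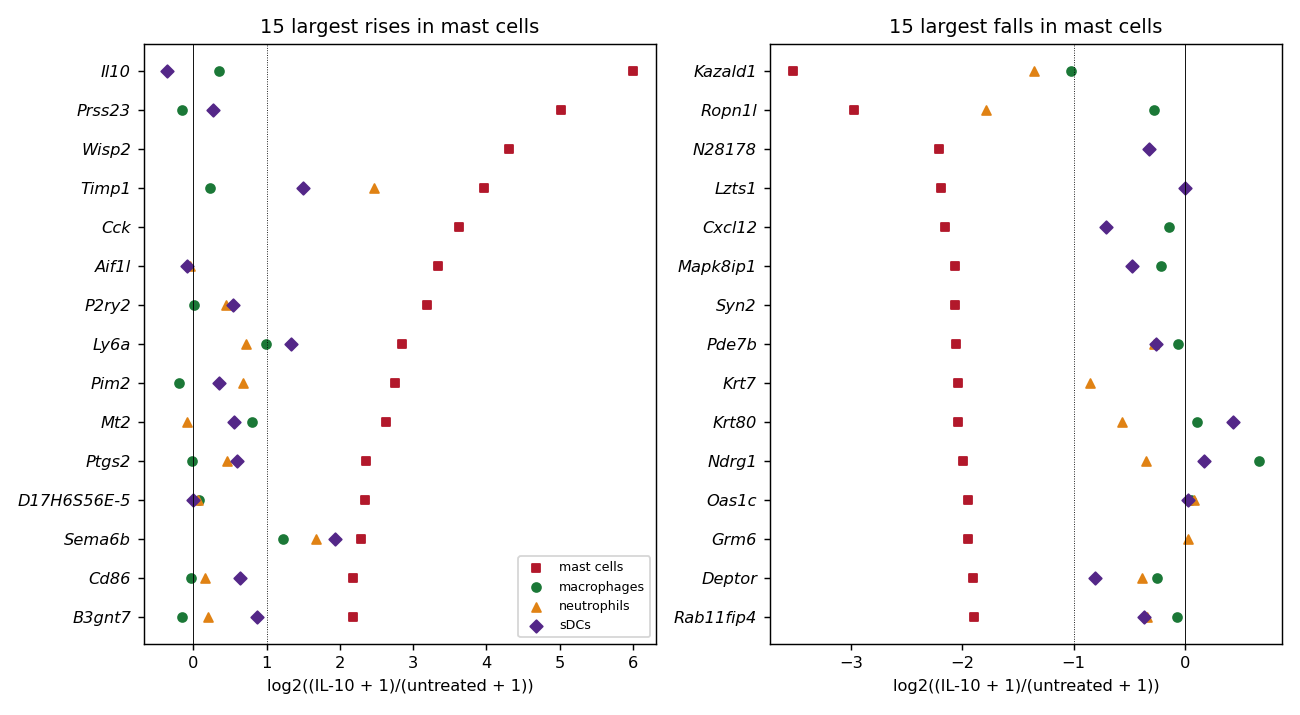
The log2 change with IL-10 alone of the 15 genes with the largest rise (left) and fall (right) in mast cells, shown for 4 cell types with 1 symbol each; a symbol is missing where the gene had under 10 in both groups of that cell type, and the dotted line marks 2-fold. Sema6b is past the line in all 4 cell types, while Il10 and Prss23 lie near 0 outside mast cells.

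The gene sums rested on single transcripts for many genes. Of the 121 raised genes 63 had 1 transcript in the table, and of the 49 with several transcripts of at least 10, 21 had all of them at least 2-fold higher and 2 had 1 or more at least 2-fold lower. Of the 151 lowered genes 81 had 1 transcript, and of 57 with several, 21 had all of them at least 2-fold lower and 5 had 1 or more at least 2-fold higher. Both Wisp2 transcripts (93 and 1820; 6.5 and 178) and both Pim2 transcripts (685 and 4569.5; 30.5 and 267) were higher with IL-10. Slc18a2 was carried by its leading transcript alone, the other having 1533 untreated and 1407.5 with IL-10. A further 142 of 5390 genes that were not called had transcripts at least 2-fold apart in both directions.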

How the data were processed

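RNA was extracted with TRIzol from mouse bone marrow-derived mast cells and libraries were made with Illumina protocols. Reads were assigned to Ensembl release 67 transcripts of mm9 with RSEM 1.2.1 and Bowtie 0.12.9, and the authors normalized the counts for GC content with EDASeq and averaged 2 replicates per group. The deposited values are therefore a score, normalized tags per transcript, not raw counts, and all 18 columns share the maximum 185338, so the columns had been put on 1 scale. Their sums are not depths, and the table holds part of the transcripts. The depth of each library was not analysed here.

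Of 17016 lines, 1 was broken and 22 (0.129%) had no gene name. The other 16993 transcripts were summed into 6509 genes. Genes with at least 10 in either group were kept, and log2((IL-10 + 1)/(untreated + 1)) was computed in Python with pandas. The calculation was run on a copy of the untreated values with set changes put in and no noise, which checks the arithmetic only. With 1 mean per group no test was run, and genes past 2-fold were called. Coordinates of genes are mm9 from GENCODE vM1, and promoters are from RefSeq for GRCm38.p6.

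Named genes were the 15 largest rises and falls with a value of at least 50, called list members with a value of at least 50, all members of the IL-10 receptor, feedback and target lists, the 5 mast cell genes highest untreated, the 5 called genes with the largest linear difference in each direction, and the 5 largest changes under 50. The members and lists were chosen with earlier results of these data known. Genes outside the rule are given as examples, chosen after their values were seen. Alternatives changed the minimum, the pseudocount, the scaling, the fold and the summing of transcripts.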

Additional observations from a re-analysis of the deposited data

How the results depend on the processing

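The counts of called genes depended on the fold and on how low genes were treated. Without the minimum of 10, 225 genes were raised and 228 lowered, and the share of raised genes that were also at least 2-fold higher with LPS present was 38.2% in place of 58.5%. With each transcript on its own 864 transcripts were raised and 900 lowered. At 1.5-fold 249 genes were raised and 457 lowered, and at 4-fold 24 and 13, so the balance of the directions changed with the fold. Minimums of 20 and 50, pseudocounts of 0.1 and 10, scaling to the column sum and centring on the median gave 92 to 123 raised and 102 to 153 lowered genes. Of 82 named genes, 80 stayed on the same side of 2-fold in each of 7 settings in which they were kept, and none changed sign. Acvrl1 (-0.95) and Tlr1 (0.96) fell short with a pseudocount of 10. Most of these settings could hardly change a call. The minimum decides only which genes are kept, and centring moved every gene by the same 0.02. Scaling used column sums that were close to each other. The count is therefore mainly a check of the pseudocount. No paired analysis was possible because the deposited columns are means of 2 replicates, and leaving out a replicate was not run for the same reason. Genes near the lowest values rest on few tags, and genes at the column maximum cannot show a rise.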

Other observations

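Some called genes that the lists did not hold share a known function, and they were picked after their values were seen. Among genes of protein folding in the endoplasmic reticulum, Manf had 2718.5 normalized tags in untreated mast cells and 5710 with IL-10, and Creld2 had 1122.5 and 2549, beside Calr and Derl3 given above. Among genes of the circadian output and nuclear receptors, Hlf had 599.5 untreated and 177.5 with IL-10, Rora 348.5 and 105.5, Thra 663 and 260.5 and Dbp 397 and 185. The survival gene Bcl2 had 5890.5 and 2877.5. The cell cycle inhibitor gene Cdkn2d had 411 and 1287.5, and the RNA-binding immune regulator Arid5a 284.5 and 1230.5. With LPS present the log2 change with IL-10 had the same sign for each of these genes. It went from 0.91 for Creld2 to 2.50 for Arid5a among the raised and from -1.77 for Rora to -0.59 for Dbp among the lowered. Genes of the same functions that were not called were not counted, so these examples do not show a change of a whole group. The nuclear receptor genes Nr1h3 (log2 difference -0.20), Nr4a1 (-0.38) and Nr4a2 (0.01), for example, did not differ by 2-fold with IL-10 alone.

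Several called genes lie within 100 kb of each other in mm9. Raised neighbours included Ly6i, Ly6a and Ly6c1 on chromosome 15, P2ry6 and P2ry2 on chromosome 7, Mt2 and Mt1 on chromosome 8, Lrg1 and Sema6b on chromosome 17, with a gap of 1.14 kb, and Kri1 and Cdkn2d on chromosome 9, with a gap of 492 bp. Lowered neighbours included Krt80, Krt7 and Krt86 on chromosome 15 and Mrgprx2 and Mrgprb2 on chromosome 7. Osm and Lif on chromosome 11 differed in direction, as did Slc6a19 and Slc12a7, N28178 and Dnajb5, and 2210011C24Rik and Palm3. How often neighbours would be called together by chance was not tested.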
